A study of Mus musculus with 4 samples.

Results

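Transcripts of the lung epithelium were examined in RNA-seq libraries of sorted group 2 innate lymphoid cells (ILC2s), lymphocytes that reside in tissues and secrete type 2 cytokines. The genes were 37 markers of alveolar type 2, alveolar type 1, club, ciliated and general epithelial cells, taken by symbol from a table of 38697 genes, and all 37 were present once. The knockout samples (KO, R5/+Nrp1f/f) came from C57BL/6 mice with a floxed Nrp1 gene, and the wild-type samples (WT, R5/+) from C57BL/6 mice without it. R5 is an Il5 reporter allele that expresses Cre recombinase, so deletion is directed to cells that use Il5. Both genotypes carried R5 and all animals were given bleomycin, a drug that injures the lung epithelium and leads to fibrosis. There were 2 KO and 2 WT samples, each a pool of 3 to 4 mice, with no untreated group, and mouse age, sex and the day after bleomycin were not given in the sources used here.

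The alveolar surface is covered by thin type 1 cells, which carry gas exchange, and dotted with cuboidal type 2 cells, which make surfactant and act as progenitors of type 1 cells after injury. The conducting airways are lined by club cells, which secrete secretoglobins and metabolise xenobiotics, and by ciliated cells, which move mucus. None of these cells is a lymphocyte, and how their transcripts came into the sorted ILC2 samples was not tested. In pooled RNA of this kind, fewer cells of a type and less RNA per cell cannot be told apart.

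The values are those of the authors' own comparison of the genotypes. For each gene it holds baseMean, the normalized count averaged over the libraries, and the log2 fold change together with its standard error (SE). Positive log2 values mean higher in KO here, on the reading that the table, named with WT first, has WT in the numerator. On that reading the targeted gene, Nrp1, fell by 1.18 ± 0.21 (SE) on the log2 scale in KO per the authors' deposited table (adjusted p = 1.27e-04). Values per pool were not analysed here, because the 8 columns that hold them have headings that match no sample label. The spread between pools is therefore seen only through the SE, and n is 2 pools per genotype throughout. ILC2 markers were abundant, with a baseMean of 39152 for Gata3, 18174 for the leukocyte antigen Ptprc and 12090 for the IL-33 receptor Il1rl1 per the authors' deposited table.

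Epithelial transcripts were detectable in the ILC2 libraries but made up a small share of them. The 37 genes held 0.133% of the summed baseMean of 12974883, and 4 of them held 61.3% of that share. Sftpc, the type 2 cell precursor of surfactant protein C, led with a baseMean of 6032 and alone gave 34.9% of the epithelial sum. It was followed by Sftpa1 (surfactant protein A) at 1988, Scgb1a1 (the club cell secretory protein) at 1486 and Ager (a receptor of the type 1 cell membrane) at 1080 per the authors' deposited table. The other 33 genes lay between 5.11 and 800.3. This order is of levels averaged over both genotypes. By the implied means, given here without errors, Scgb1a1 was above Ager in KO (2391 and 1181) and below it in WT (581 and 978). By cell type, the type 2 genes summed to 0.0819% of all baseMean, the club genes to 0.0193%, the type 1 genes to 0.0181%, the shared epithelial genes to 0.0102% and the ciliated genes to 0.00120%. The implied sum of the club genes was above that of the type 1 genes in KO (3835 and 2494) and below it in WT (1183 and 2210). Neither change of order was tested, and the log2 fold changes beneath them have wide errors (SE of 1.58 for Ager and 1.00 for Scgb1a1).

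Long transcripts collect more reads, so levels between genes were compared per kb of exonic length. On that scale Sftpc stood at 5833 normalized counts per kb, and Scgb1a1, whose exons span 476 bp, came second at 3122. Sftpa1 followed at 695, Ager at 504, the carbonyl reductase Cbr2 at 213 and the lipid-binding protein Sec14l3 at 199. Sftpc exceeded Ager 11.6-fold and Scgb1a1 1.87-fold per kb. From the implied means, the ratio of Sftpc to Scgb1a1 per kb was 1.40 in KO and 3.79 in WT, a contrast that was not tested. The lowest levels per kb were those of Nkx2-1 at 7.89, the transcription factor that defines the lung lineage, and of the ciliated genes Ccdc153 at 2.51 and Foxj1 at 2.40, Foxj1 being the regulator of motile cilia.

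No epithelial gene passed the genotype test. Of the 37 genes, 35 had an adjusted p, and at a threshold of 0.05 on it 0 were higher in KO and 0 were lower, where 0.453% of all 19193 tested genes were higher and 0.099% lower. At an unadjusted p under 0.05, 6 of the 35 were higher in KO and 0 lower, against 9.62% and 3.95% of all tested genes. These 6 were Cyp2f2, Krt18, Krt8, Dynlrb2, Cldn4 and Scgb1a1. Of the 35 genes, 30 had a positive log2 value (85.7%), against 54.0% of all tested genes, and their median was 0.64, against 0.076.

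That contrast depends on abundance, since genes with few reads mostly had positive values in this comparison. Where baseMean was 10 to 100, 79.5% of all tested genes were positive, with a median of 0.85, and the 9 epithelial genes in that range had 8 positive values and a median of 1.02. Where baseMean was 100 or more, in contrast, 24.0% of 9225 genes were positive, with a median of -0.19. Of the 25 epithelial genes in that range, 21 were positive (84.0%), with a median of 0.57. At an unadjusted p under 0.05, 3 of these 25 were higher and 0 lower, where 93 of the 9225 were higher and 752 lower. The most abundant genes of the table, at a baseMean of at least 1000, had a median of -0.25, and the 4 epithelial genes among them stood at 0.27 to 2.04. At a baseMean of 100 or more, most epithelial genes thus lay on the opposite side of 0 from most genes, while at 10 to 100 they lay on the same side. None passed alone at the threshold on the adjusted p.

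**Figure D1:**
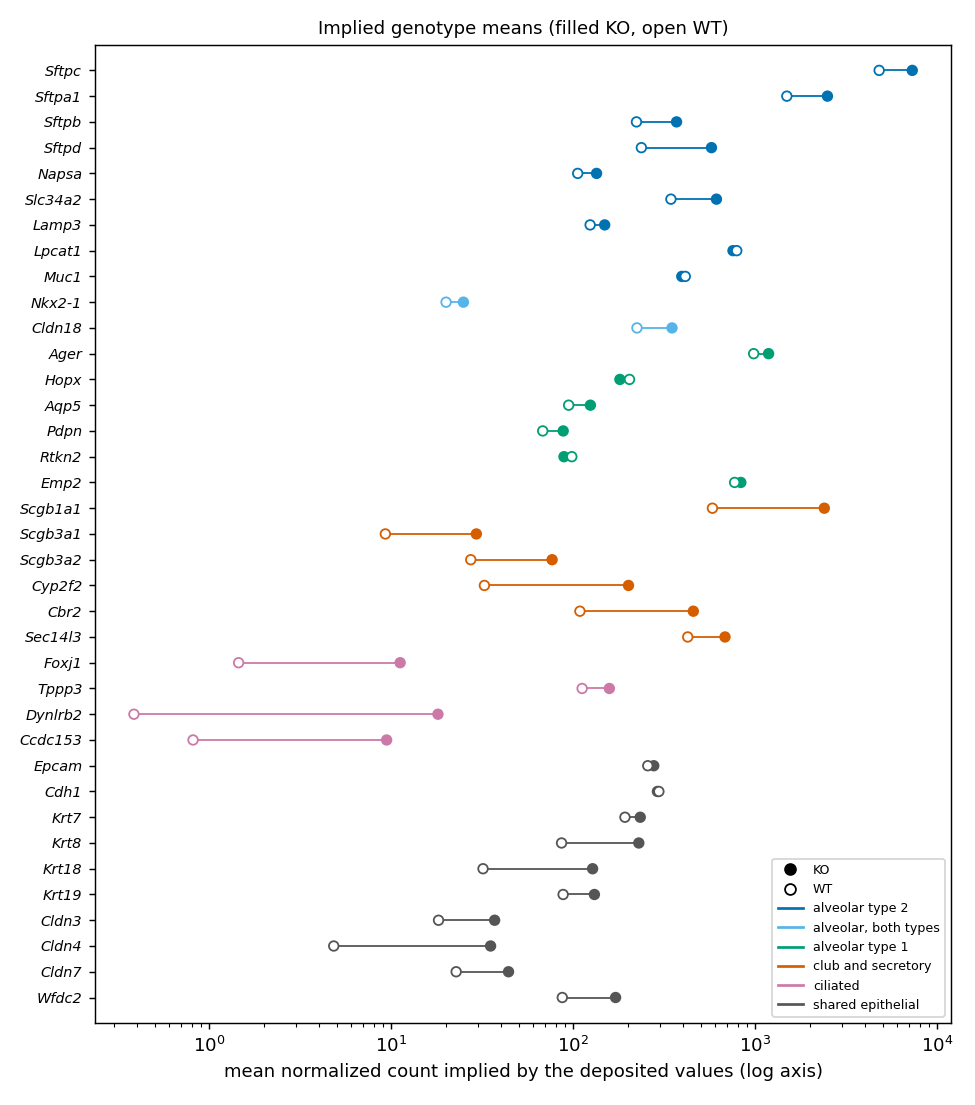
Mean normalized count in KO (filled) and WT (open) for each of the 37 genes, on a log axis, as implied by baseMean and the fold change with equal weight of the genotypes. Scgb1a1 (2391 in KO and 581 in WT), Cbr2 and Cyp2f2 are the genes with a baseMean over 100 whose points lie farthest apart, while Lpcat1, Muc1, Epcam and Cdh1 have nearly superimposed points.

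Among alveolar type 2 genes, the 4 surfactant protein genes all had positive values. Sftpc had an implied mean of 7277 normalized counts in KO and 4787 in WT, a log2 fold change of 0.60 ± 1.44 (SE) per the authors' deposited table. Its interval ran from -2.22 to 3.43, so neither a several-fold lower nor a several-fold higher level in KO lies outside it. Sftpa1 stood at 0.74 ± 1.38 and Sftpb, the hydrophobic surfactant protein B, at 0.73 ± 1.35 per the authors' deposited table. Sftpd, the collectin surfactant protein D, had implied means of 574 in KO and 236 in WT and a log2 value of 1.28 ± 1.07, with an adjusted p of 0.635 per the authors' deposited table. Summed over these 4 genes, the implied level was 10708 in KO and 6733 in WT, a ratio of 1.59.

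The other type 2 genes split by the size of their errors. Slc34a2, the phosphate transporter of type 2 cells, stood at 0.83 ± 1.23 and Lamp3, a membrane protein of lamellar bodies, at 0.27 ± 1.59 per the authors' deposited table. Napsa, the protease that processes surfactant protein B, was measured more tightly at 0.34 ± 0.61 (adjusted p = 0.853) per the authors' deposited table. Lpcat1, which makes dipalmitoyl phosphatidylcholine of surfactant and is also widely used by other cells, stood at -0.068 ± 0.22 per the authors' deposited table. Muc1, a membrane mucin, stood at -0.064 ± 0.31 in the same source. For Lpcat1 the interval of -0.51 to 0.37 lies within 2-fold on either side, in contrast to those of the surfactant genes. Centred on abundant genes, Lpcat1 and Muc1 turned positive, at 0.18 and 0.19.

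Nkx2-1 and Cldn18, a claudin of alveolar tight junctions, are used by both alveolar types. Nkx2-1 stood at 0.32 ± 1.26 at a baseMean of 22.4 and Cldn18 at 0.64 ± 1.48 at a baseMean of 286 per the authors' deposited table. Because Nkx2-1 is known to bind surfactant gene promoters, the stretch upstream of the RefSeq start is shown for a pair of surfactant genes, and for Cyp2f2, the airway gene with the smallest p. The sequences are from RefSeq (GRCm38.p6, plus strand), chr14:41131538-41131781 for Sftpa1, chr6:72304360-72304609 for Sftpb and chr7:27119705-27119908 for Cyp2f2, each ending before the first base of the gene in RefSeq or GENCODE. Capitals mark matches on either strand to CTCAAG (NKX2-1), TGTTTNC (forkhead factors), TTGCNNAA (C/EBP), GGGCGG (SP factors) or TGANTCA (AP-1).
Sftpa1: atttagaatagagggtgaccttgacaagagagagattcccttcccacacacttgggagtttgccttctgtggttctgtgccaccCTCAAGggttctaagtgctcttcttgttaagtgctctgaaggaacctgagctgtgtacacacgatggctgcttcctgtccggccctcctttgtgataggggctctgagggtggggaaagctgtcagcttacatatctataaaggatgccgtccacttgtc
Sftpb: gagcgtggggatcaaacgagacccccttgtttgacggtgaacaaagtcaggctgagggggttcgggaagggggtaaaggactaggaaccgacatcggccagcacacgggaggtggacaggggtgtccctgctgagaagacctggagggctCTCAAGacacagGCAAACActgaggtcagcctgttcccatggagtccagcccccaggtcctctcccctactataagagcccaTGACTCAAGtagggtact
Cyp2f2: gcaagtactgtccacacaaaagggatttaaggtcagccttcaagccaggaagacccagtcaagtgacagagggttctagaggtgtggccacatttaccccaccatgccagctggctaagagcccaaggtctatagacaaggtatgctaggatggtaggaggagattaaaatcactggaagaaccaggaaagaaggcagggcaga
Sftpa1 held 1 match, to the NKX2-1 letters. Sftpb held 2 of these, 1 forkhead match and 1 AP-1 match that overlaps the NKX2-1 match nearest to the start. The Cyp2f2 stretch held none of the 5 motifs. Of the 37 genes, 27 had an entry among the RefSeq promoters, and in the 250 bases before the start the NKX2-1 letters occurred in 6 of 27 (22.2%), against 13.3% of all 32851 stretches of that length. Forkhead letters occurred in 7 of 27 (25.9%, against 17.8%), SP letters in 11 (40.7%, against 32.7%), AP-1 letters in 2 (7.41%, against 6.75%) and C/EBP letters in 1 (3.70%, against 9.56%).

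Alveolar type 1 genes had the smallest median difference of the groups. Their median log2 value was 0.19, with a range of -0.18 to 0.40 over 6 genes, and the summed implied level was 2494 in KO and 2210 in WT, a ratio of 1.13. Ager, the most abundant, had implied means of 1181 in KO and 978 in WT and stood at 0.27 ± 1.58 (adjusted p = 0.965) per the authors' deposited table. Emp2, a tetraspan protein of type 1 cells, stood at 0.11 ± 1.16 and Aqp5, their water channel, at 0.40 ± 1.86 per the authors' deposited table. Pdpn, the membrane glycoprotein podoplanin, also found on lymphatic endothelium and stromal cells, stood at 0.37 ± 0.72 per the authors' deposited table. Hopx, a homeodomain protein that lymphocytes also use, stood at -0.18 ± 0.49 and Rtkn2 at -0.14 ± 0.83 per the authors' deposited table. Hopx and Rtkn2 turned positive when centred on abundant genes, at 0.076 and 0.11.

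Club and secretory genes had the highest median difference of the groups apart from the sparsely read ciliated genes. All 6 were positive, with a median log2 of 1.85 and a summed implied level of 3835 in KO and 1183 in WT, a ratio of 3.24. Of these, Scgb1a1, Cyp2f2, Cbr2 and Sec14l3 had a baseMean over 100, where 24.0% of all genes were positive. Cyp2f2, a club cell cytochrome P450 (chromosome 7, 27119909 to 27133660, mm10), had implied means of 201 in KO and 32.4 in WT. Its log2 value was 2.63 ± 0.73, with an interval of 1.20 to 4.06 and an adjusted p of 0.0540 per the authors' deposited table, just outside the threshold. With centring on abundant genes the adjusted p of Cyp2f2 was 0.0220, and over the settings that adjust p it ranged from 0.0220 to 0.109. Scgb1a1 had implied means of 2391 in KO and 581 in WT and a log2 value of 2.04 ± 1.00 (unadjusted p = 0.0407, adjusted p = 0.336) per the authors' deposited table.

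The remaining secretory genes had wider or comparable errors. Cbr2 had implied means of 456 in KO and 109 in WT and stood at 2.07 ± 1.48 (adjusted p = 0.565) per the authors' deposited table. Scgb3a2, a secretoglobin of the distal airway, stood at 1.48 ± 0.86 and Scgb3a1, a secretoglobin of the upper airway, at 1.66 ± 1.28 per the authors' deposited table. Sec14l3 was the lowest of the 6, at 0.68 ± 1.64 per the authors' deposited table. All 3 secretoglobins lay between 1.48 and 2.04. Scgb3a2 and Scgb3a1 had a baseMean of only 51.8 and 19.3, in the range where 79.5% of all tested genes were positive, with a median of 0.85. The summed implied level of the 3 was 2497 in KO and 617 in WT, most of it from Scgb1a1 (2391 and 581). Whether club genes differ from alveolar genes in their response was not tested, since the errors of genes from the same pools are not independent and their covariance is not in the table.

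Of the 4 ciliated genes, 3 had fewer than 10 normalized counts on average. Foxj1 and Ccdc153 had a baseMean of 6.31 and 5.11 and were given no adjusted p by the authors. Their log2 values, 2.95 ± 2.58 and 3.53 ± 2.43 per the authors' deposited table, have intervals that span 0. Dynlrb2, a dynein light chain, had implied means of 18.0 in KO and 0.385 in WT and a fitted log2 value of 5.55 ± 2.29 (unadjusted p = 0.0154, adjusted p = 0.226) per the authors' deposited table. At such WT levels the fitted value gives no measured fold. Tppp3, a tubulin-binding protein that some fibroblasts also use, was the only well-covered gene of the 4, at a baseMean of 135 and a log2 value of 0.50 ± 0.64 per the authors' deposited table. Where baseMean was under 10, 89.1% of all tested genes were positive, with a median of 2.01.

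**Figure D2:**
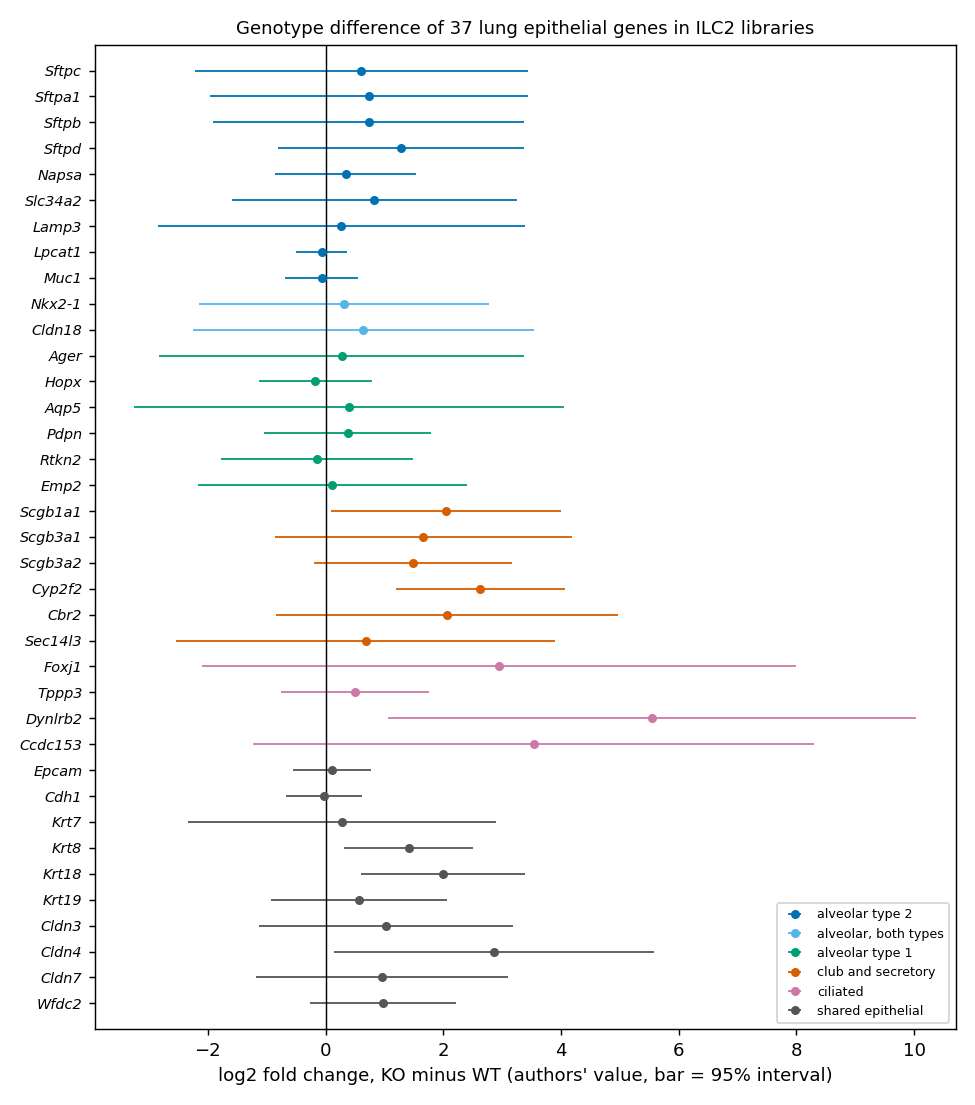
Log2 fold change, KO minus WT, of each gene as deposited by the authors, with bars for the 95% interval from its SE. Intervals of Scgb1a1, Cyp2f2, Dynlrb2, Krt8, Krt18 and Cldn4 lie above 0, and 0 intervals lie below it.

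Genes shared by many epithelia diverged from each other. Krt8 and Krt18 encode the paired type II and type I keratins of simple epithelia. Krt18 had implied means of 127 in KO and 31.9 in WT and a log2 value of 2.00 ± 0.71 (unadjusted p = 0.00497, adjusted p = 0.153) per the authors' deposited table. Krt8 had implied means of 229 in KO and 86.1 in WT and stood at 1.41 ± 0.56 (unadjusted p = 0.0119, adjusted p = 0.203) per the authors' deposited table. The genes of this pair lie 23697 bp apart on chromosome 15 (Krt8 at 101996698 to 102004482, Krt18 at 102028180 to 102032027, mm10). Krt19 and Krt7, also keratins of simple epithelia, stood at 0.57 ± 0.76 and 0.28 ± 1.33 per the authors' deposited table.

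Cldn4, a tight junction claudin that transitional alveolar cells are known to raise after injury together with Krt8 and Krt19, stood at 2.86 ± 1.38 (unadjusted p = 0.0387, adjusted p = 0.331) per the authors' deposited table. Its implied means were 35.1 in KO and 4.82 in WT. A list of 6 further genes of injury-induced transitional cells had a median of 0.24 and a summed implied level of 11647.6 in KO and 11569.5 in WT. Most of that sum came from the cell cycle inhibitor Cdkn1a, at -0.016 ± 0.18 per the authors' deposited table. The next, the galectin Lgals3, stood at 0.14 ± 0.26 and Sfn at 0.33 ± 0.35 per the authors' deposited table. Ndrg1 stood at -0.073 ± 0.44, Itgb6 at 1.45 ± 0.76 (adjusted p = 0.390) and Krt17 at 5.57 ± 3.13 in the same source. Krt17 had a baseMean of only 3.49. Itgb6 had implied means of 113 in KO and 41.6 in WT. The sum therefore says little about the less abundant genes of the list. The neighbour of Cldn4, Cldn3, 39279 bp away on chromosome 5, stood at 1.02 ± 1.10 and Cldn7 at 0.96 ± 1.09 per the authors' deposited table. Wfdc2, a secreted protease inhibitor of airway cells, had implied means of 171 in KO and 86.9 in WT and stood at 0.97 ± 0.63 (adjusted p = 0.515) per the authors' deposited table. The pan-epithelial adhesion genes showed no such values. Epcam stood at 0.11 ± 0.34 and Cdh1, which encodes E-cadherin, at -0.027 ± 0.33 per the authors' deposited table. Both are also known in some dendritic cells. Centred on abundant genes, Cdh1 turned positive, at 0.22.

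The standard errors of many epithelial genes were far wider than those of other genes with as many reads. Of the 25 epithelial genes with a baseMean of at least 100, 13 had an SE of at least 1, while 75 of all 9225 such genes did (0.813%), a line chosen after the errors were seen. Scgb1a1, at 0.998, lay just below that line. Ager had 8.28 times the median SE of genes in its decade of baseMean, Sftpc 7.54 times and Sftpa1 7.21 times. In a comparison of 2 against 2 pools, an SE of this size corresponds to a coefficient of variation within a genotype of about 110% for Ager and 100% for Sftpc, against 13.3% for the median gene with a baseMean of 1000 to 10000. By contrast, 5 genes had an SE under 0.5, namely Lpcat1, Muc1, Hopx, Epcam and Cdh1, with log2 values between -0.18 and 0.11. Lpcat1 had 0.688 times the median SE of its decade and Epcam 1.04 times.

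**Figure D3:**
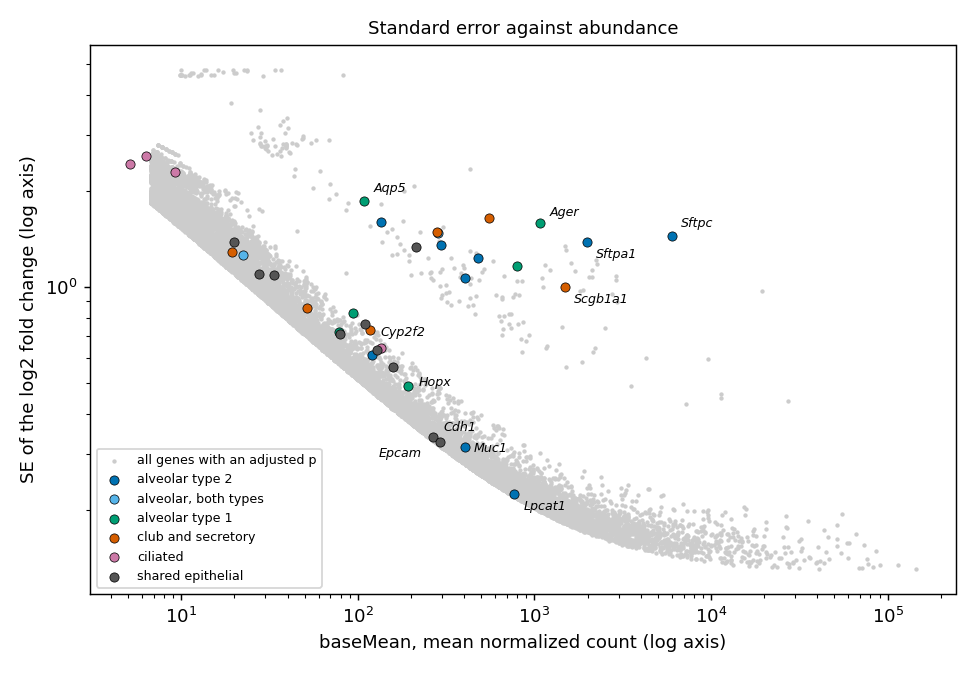
SE of the log2 fold change against baseMean, both on log axes, with all genes that have an adjusted p in grey and the 37 epithelial genes in colour by cell type. Sftpc, Sftpa1, Ager and Aqp5 lie well above the main band, while Lpcat1, Muc1, Epcam and Cdh1 lie within it. Foxj1 and Ccdc153, at the left, have no adjusted p.

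Of the 75 genes with such wide errors, 44 were in no list. Among the others, 20 belonged to the 37 genes or to further epithelial lists. A list of 10 fibroblast genes gave 7 and a list of 5 red blood cell genes gave 4. The lists of 15 ILC2, 10 macrophage and 10 endothelial genes gave 0. Most macrophage genes, from C1qa at a baseMean of 72.4 down to Itgam at 4.88, had too few reads to count among the 75. The 0 therefore says little about that list. Of its more abundant genes, Chil3 had an SE of 0.947, 2.90 times the median of its decade. C1qb and Csf1r had an SE of 0.580 and 0.552. Of the 75, 70 had a positive log2 value, all 13 epithelial members among them. The fibroblast collagen Col3a1 stood at 0.70 ± 1.22 and the haemoglobin chain Hba-a1 at 0.84 ± 1.08 per the authors' deposited table, values close to that of Sftpc at 0.60 ± 1.44. Whether a single pool underlies these errors was not tested.

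Further epithelial genes gave few calls. An adjusted p was given for 14 of 14 other type 2, 13 of 13 other type 1, 12 of 14 other ciliated, 5 of 6 transitional and 15 of 15 other shared epithelial genes, and 0 of these passed in either direction. Only 1 of 5 goblet and 2 of 4 basal genes had an adjusted p, and 0 of these passed. Of 9 other club genes, 7 had an adjusted p, and 1 was higher and 0 lower, where 0.453% of all tested genes were higher. This gene was Hp, which encodes haptoglobin and which neutrophils and liver cells also make. It rose by 2.09 ± 0.43 on the log2 scale, at a baseMean of 209 and with an adjusted p of 0.00190 per the authors' deposited table. The next most abundant gene of that list, Aldh1a1, a retinaldehyde dehydrogenase, stood at 0.096 ± 0.58 per the authors' deposited table. The median of the 9 other club genes was 0.91, beside 1.85 for the 6 club and secretory genes above. The 14 other ciliated genes had 13 positive values, a median of 2.42 and a highest baseMean of 68.4. At such levels most tested genes were positive (79.5% at a baseMean of 10 to 100 and 89.1% under 10), with medians of 0.85 and 2.01. At an unadjusted p under 0.05, 5 of the 14 were higher and 0 lower, where 2489 of all 38697 genes were higher and 759 lower. Hydin, the most abundant, stood at 2.57 ± 2.89 per the authors' deposited table. The smallest adjusted p were 0.0648 for Sntn (7.34 ± 2.12), 0.0852 for Dnah5 (3.42 ± 1.05) and 0.0912 for Ak7 (4.85 ± 1.51) in the same source. The implied WT mean of Sntn was 0.146. Dnah9, an axonemal dynein, stood at 2.28 ± 0.82 (unadjusted p = 0.00528, adjusted p = 0.156) per the authors' deposited table. The 14 other type 2 genes had a median of 0.15 and the 13 other type 1 genes of 0.42, beside 0.60 and 0.19 for the type 2 and type 1 genes above. These lists ranged from -0.41 to 1.19 and from -0.49 to 1.28. The most abundant were Lyz2 (0.14 ± 0.20) and Cd74 (0.17 ± 0.23) of the type 2 list. For type 1 they were Cav1 (0.26 ± 0.64) and Vegfa (0.11 ± 0.27), all per the authors' deposited table. The cell of origin of these genes was not tested. The basal regulator Trp63 was at a baseMean of 21.4 and the goblet mucin Muc5b at 37.1, so basal and goblet transcripts were rare.

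Markers of other non-lymphoid cells mostly had positive values as well. The median was 0.74 for 10 fibroblast genes (9 positive), 0.63 for 5 red blood cell genes (4 positive), 0.52 for 10 macrophage genes (9 positive) and 0.29 for 10 endothelial genes (8 positive). All of the fibroblast, red blood cell and endothelial genes but Tcf21 had a baseMean over 100, where 24.0% of all genes were positive. Most macrophage genes, from C1qa at 72.4 down to Itgam at 4.88, lay under 100. At a baseMean of 10 to 100, 79.5% of all tested genes were positive, with a median of 0.85. The summed baseMean was 8608 for the fibroblast, 6308 for the red blood cell, 7065 for the endothelial and 1279.5 for the macrophage genes, beside 17279 for the 37 epithelial genes. All 15 ILC2 genes had negative values, with a median of -0.33 and 0 past the test, where genes at a baseMean of 1000 or more had a median of -0.25. At an unadjusted p under 0.05, 7 of the 15 were lower and 0 higher. Of all 9225 genes with a baseMean of 100 or more, 752 were lower and 93 higher. The part of these other cells in the epithelial values was not tested.

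**Figure D4:**
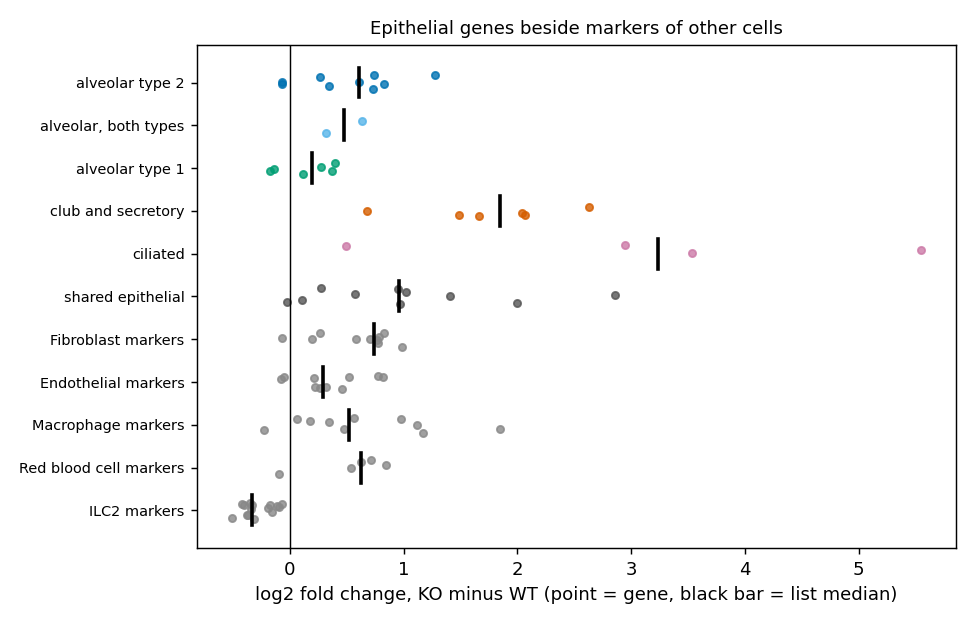
Log2 fold change, KO minus WT, of each gene, with a black bar at the median of each group. Epithelial groups are coloured and marker lists of other cells are grey. Club and ciliated medians (1.85 and 3.24) exceed those of fibroblast (0.74) and red blood cell (0.63) markers, and ILC2 markers lie below 0 (-0.33). The ciliated median is not of like abundance. Of its 4 genes, 3 have a baseMean under 10, where all tested genes had a median of 2.01. The better covered Tppp3 stands at 0.50. The fibroblast and red blood cell genes have a baseMean of at least 74.3.

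Annotation limits the reading of some genes. Exons of 7 of the 37 genes overlap a gene on the opposite strand, among them Cyp2f2 (274 bp shared with Gm15883), Krt8 (101 bp with Gm36026), Napsa (502 bp with Gm15396) and Hopx (412 bp with Hopxos). The kits are not described as marking strand, so reads in those stretches cannot be assigned to a strand here. The test of each gene is the two-sided one of the authors, adjusted by Benjamini-Hochberg over all tested genes. All directions rest on the reading of the table's name, on which the targeted gene, Nrp1, was lower in KO.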

How the data were processed

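RNA of ILC2s sorted from the lungs of bleomycin-treated mice was isolated with Trizol (7 to 14 ng/ul), copied with the SMART-Seq HT kit and made into libraries with a TruePrep kit, per the labels' protocols. The submitters' processing notes name HISAT2, Cufflinks and mm10 but not what each was used for, and neither the counter nor the annotation is given in the sources used here. The authors deposited baseMean (a normalized count averaged over libraries, a signal), a log2 fold change and its SE (log2 scale), the ratio of these (a score) and p-values before and after adjustment, under headings that DESeq2 writes, per the file headers. If the errors were moderated across genes, as that tool does, they are fitted quantities rather than observed spreads. The table also has 8 columns that match no sample label and were not used. Depth per library is therefore unknown here, and count models, fits without a pool and a replicate block were not run. The plan named edgeR for matched counts, and without them the authors' test stands. The statistic equalled fold change over SE within 5.35e-08, and re-adjusting p over the 19193 genes differed by at most 3.96e-05.

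The sign was turned to KO minus WT. Implied genotype means came from baseMean and the fold change with equal weights, and the variation within a genotype from SE times ln 2. Intervals are 95% from the SE. Exonic lengths and positions were those of GENCODE M21 on GRCm38 (mm10), which held 38427 of the identifiers. Alternatives were no filter, a baseMean of at least 50, centring on genes with a baseMean of at least 1000, and other thresholds. Every member is named, and of each further list the 2 most abundant genes, where they bear on a result, and any gene past the threshold. Gata3, Ptprc and Il1rl1 were added as defining ILC2 markers. The other transitional genes and the further ciliated genes with the smallest p were added as well. The members and lists were chosen with earlier results of these data known. The adjustment and centring were tested on simulated data. Python 3.11.15, pandas 2.3.3, numpy 2.4.6 and scipy 1.17.1 were used.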

Additional observations from a re-analysis of the deposited data

How the results depend on the processing

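The count of epithelial genes higher in KO was 0 as deposited, 0 with no filter and 0 among genes whose baseMean is 50 or more. It was 1 of 35 when centred on abundant genes, where 225 of all 19193 tested genes were higher. It was also 1 of 35 at an adjusted p under 0.1, where 266 of the 19193 were higher. Both times the gene was Cyp2f2. With a 2-fold size and an unadjusted p under 0.05 asked for, the count was 6 of 37, where 2451 of all 38697 genes were higher. The count lower in KO was 0 in each of these settings. Of 173 single-gene values recomputed, 160 kept direction and side of the threshold, 8 gained a call and 5 turned direction. Only centring, which adds 0.25 to each log2 value, could turn a direction, since the other settings keep the log2 values. On centring, all 5 genes with a negative value turned: Lpcat1 (0.18), Muc1 (0.19), Hopx (0.076), Rtkn2 (0.11) and Cdh1 (0.22). The epithelial share of 0.133% became 0.245% per kb of exonic length, 0.138% over protein-coding genes and 0.0867% without Sftpc. The median SE of the 37 genes, relative to genes of like baseMean, was 1.87 in bins of a decade and 1.49 in bins of a smaller width. Leaving out Sftpc and the narrower bins were chosen after seeing the data. The cause was not tested. No paired analysis was possible because the columns per library carry no replicate number or sample label, and for the same reason fits without a pool, DESeq2 and edgeR were not run. With 2 pools per genotype and these errors, several-fold differences were not detectable for genes with an SE of at least 1, such as Sftpc, Sftpa1, Sftpb and Ager.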
